A study of Mus musculus with 6 samples.

Results

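The NRF2 pathway and the glutathione enzymes were followed in interscapular brown adipose tissue (iBAT) through 10 genes, of 20630 gene symbols named on the array. They are the transcription factor gene *Nfe2l2* and its repressor *Keap1*, the detoxification enzymes *Nqo1* and *Hmox1*, the glutathione synthesis and recycling enzymes *Gclc*, *Gclm* and *Gsr*, and the peroxidases *Gpx1*, *Gpx3* and *Gpx4*. The genes were chosen by name, and every probe whose RefSeq accession belonged to 1 of them was taken, which gave 12 probes, since *Hmox1* and *Gsr* had 2 each. The arrays compared iBAT of control mice (3 samples) with iBAT of *ob/ob* mice (3 samples). All were male C57BL/6 animals of 16 weeks, and total RNA of each sample was labeled with Cy3 and hybridized to 1 Agilent single-dye mouse expression array. *ob/ob* mice are homozygous for a nonsense change in the leptin gene and become obese, and the genotype of the other group is given only as control. The labels do not say whether each sample came from 1 animal or from a pool, so the p-values measure the spread between these samples, which may be technical.

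NRF2, the protein of *Nfe2l2*, is held at a low level by KEAP1, which presents it to a CUL3 ubiquitin ligase for degradation. When electrophiles or peroxides modify cysteines of KEAP1, NRF2 accumulates, pairs with a small MAF protein and binds antioxidant response elements in the promoters of detoxification and glutathione genes. Brown fat burns fatty acids in mitochondria to make heat, and glutathione with its peroxidases is a main route by which such cells remove peroxides. The arrays read transcripts only, whereas NRF2 is controlled largely through the stability of the protein.

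Promoter stretches with the letters of the response element are given first, because NRF2 acts through such elements. The window ran from 250 bases before to 50 bases after each gene's start in the RefSeq table (build GRCm38.p6), and it was held for 7 of the 10 genes. *Hmox1*, *Gclc* and *Gsr* had no window and were not searched. The core letters TGACNNNGC, searched on both strands, stood in 2 of these 7, *Nfe2l2* itself and *Gclm*, and in 14% of 27025 genes. The longer spelling TGACTCAGC is 1 form of the core and also holds the AP-1 letters TGACTCA. It stood in 0 of the 7 and in 0.503% of all genes. Of 78 other genes of the pathway with a window, 20 (25.6%) held the core, *Mafg* among them, and 2 held the longer spelling, *Me1* and *Prdx1*. The windows of both genes of the 10 with a match and of these 2 are shown. The stretch around each match is given 5′ to 3′ on the strand of the gene, with the match in capitals. In *Gclm* and *Prdx1* the match reads on the opposite strand.
Nfe2l2, chr2:75704875-75704913, minus strand: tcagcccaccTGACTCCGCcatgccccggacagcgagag
Gclm, chr3:122245393-122245451, plus strand: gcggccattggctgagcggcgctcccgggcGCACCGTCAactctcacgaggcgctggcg
Me1, chr9:86695912-86695950, minus strand: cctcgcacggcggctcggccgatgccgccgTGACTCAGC
Prdx1, chr4:116685436-116685494, plus strand: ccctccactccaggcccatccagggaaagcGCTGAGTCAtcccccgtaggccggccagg
The match began 240 bases before the start of *Nfe2l2*, 134 before that of *Gclm*, 6 before that of *Me1* and 133 before that of *Prdx1*. A match is a description of the letters, not a site shown to bind.

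The resemblance between arrays bears on every value. Over the 35448 probes that passed the detection filter, Spearman's rho was 0.488 to 0.967 between arrays of the same group. It was 0.417 to 0.944 between arrays of different groups. Control 3 resembled *ob/ob* 1 and *ob/ob* 2 (0.915 and 0.944) more than control 1 and control 2 (0.642 and 0.73), and *ob/ob* 3 resembled control 1 (0.858) more than *ob/ob* 1 and *ob/ob* 2 (0.573 and 0.488). The median log2 signal of the spike-in controls was 4.01 on *ob/ob* 3 and at least 6.19 on the other arrays. Between 83.5% and 89.9% of spots on an array were well above background, and no spot was saturated. Control 1, control 3 and *ob/ob* 1 shared 1 scan, and each other array had a scan of its own, so a within-scan value sets 1 *ob/ob* array against 2 control arrays. *Ucp1*, the uncoupling protein of brown fat, was well above background on every array. Its log2 signal was 13.05, 11.72 and 9.48 on the control arrays and 8.93, 9.12 and 10.03 on the *ob/ob* arrays. Of the other brown fat markers, *Elovl3* was well above background on 0 and *Prdm16* on 1 of the 3 *ob/ob* arrays, and both on all control arrays. *Ucp1* alone does not show that the tissue was free of muscle, whose markers are given below. *Lep* itself does not check the labels, because the mutant allele is still transcribed. Its log2 signal was 5.74, 4.57 and 5.30 in controls and 6.68, 5.83 and 9.33 in *ob/ob* samples, with no overlap.

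With all 6 arrays, *Gsr* was the 1 gene of the 9 tested whose *ob/ob* and control values did not overlap, at the brighter of its probes, and no probe of the 10 genes passed an adjusted p of 0.05 (limma, Benjamini-Hochberg over 35448 probes). The percentage of all tested probes past that threshold was 0%. At an unadjusted p of 0.05, 1 of the 11 tested probes passed, against 3.51% of all probes, and 8% of 19011 genes had groups that did not overlap, 3.78% with *ob/ob* higher and 4.22% with *ob/ob* lower. A single non-overlapping gene among 9 is near that background. Estimates were higher in *ob/ob* iBAT for 5 genes and lower for 4, with a median log2 fold change of 0.085. Over all tested genes 8137 were higher and 10874 lower, with a median of -0.086. Signals below are quantile-normalized log2 values, listed for samples 1, 2 and 3 of a group, and differences are *ob/ob* minus control on that scale with the standard error (SE) of the fit.

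**Figure D1:**
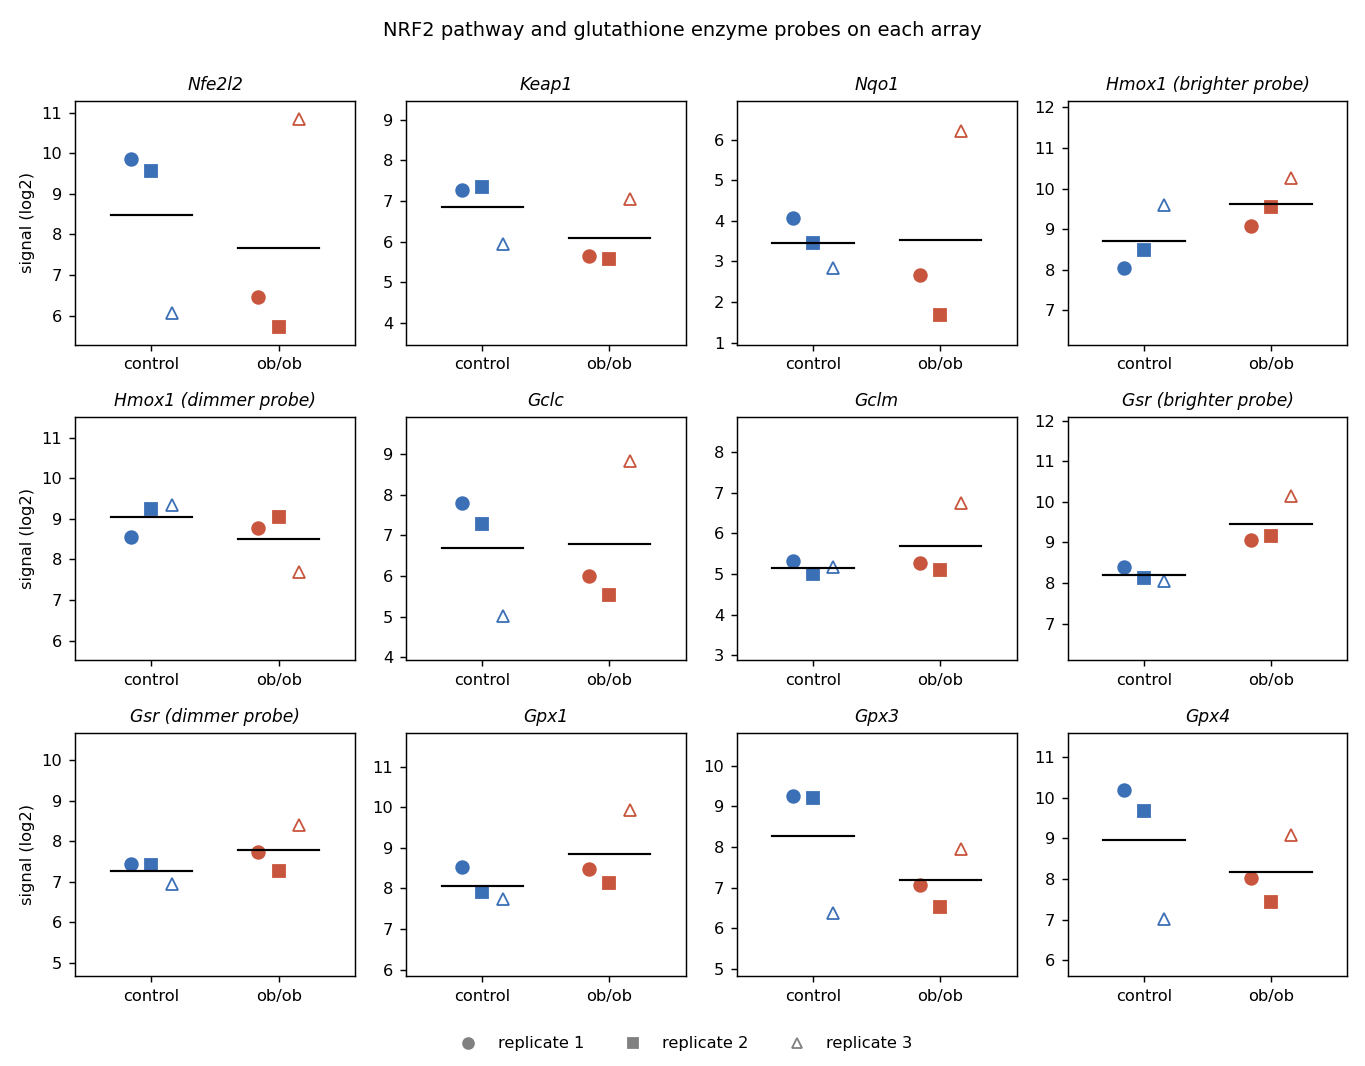
Quantile-normalized log2 signal (y axis) of the 12 probes on each array, control in blue and *ob/ob* in red, with lines at the group means. Every panel spans 6 log2 units, open triangles are control 3 and *ob/ob* 3, and only the brighter *Gsr* probe has all *ob/ob* points above all control points.

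*Nfe2l2* and *Keap1*, the activator and its repressor, gave lower mean signals in *ob/ob* iBAT with wide spread. The signal of *Nfe2l2* was 9.85, 9.55 and 6.06 on the control arrays and 6.45, 5.72 and 10.85 on the *ob/ob* arrays. Its highest array was *ob/ob* 3 and its lowest *ob/ob* 2, so the *ob/ob* samples enclosed all control samples. The difference was -0.81 (SE 1.62), the range over the arrays was 5.13, and the within-scan difference was -1.51. *Keap1* read 7.27, 7.35 and 5.95 in controls and 5.65, 5.57 and 7.04 in *ob/ob* samples. Control 3 lay with the low *ob/ob* pair and *ob/ob* 3 with the high control pair. The difference for *Keap1* was -0.77 (SE 0.60, limma unadjusted p = 0.243), and -0.96 within the scan.

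Of the detoxification enzymes, *Nqo1* could not be tested and *Hmox1* gave opposite signs at its probes. *Nqo1*, a quinone reductase and a common readout of NRF2 activity, was well above background on 2 arrays, control 1 and *ob/ob* 3. Its signal was 4.07, 3.45 and 2.85 in controls and 2.66, 1.68 and 6.22 in *ob/ob* samples. *Hmox1* encodes heme oxygenase, which breaks heme down to biliverdin, iron and carbon monoxide. Its brighter probe read 8.04, 8.48 and 9.60 in controls and 9.08, 9.54 and 10.27 in *ob/ob* samples. Here the highest value was *ob/ob* 3, and control 3 lay above *ob/ob* 1 and *ob/ob* 2, so the groups overlapped. That probe differed by 0.92 (SE 0.54, limma unadjusted p = 0.137), or 0.26 within the scan. The dimmer probe read 8.55, 9.23 and 9.33 in controls and 8.77, 9.04 and 7.69 in *ob/ob* samples. On it *ob/ob* 3 was the lowest array rather than the highest, and the difference was -0.54 (SE 0.48). No direction can therefore be given for *Hmox1* as a gene.

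*Gsr* stood apart from the ligase genes *Gclc* and *Gclm* in having no overlap at its brighter probe. *Gsr* encodes glutathione reductase, which returns oxidized glutathione to its reduced form with NADPH. The brighter probe read 8.40, 8.11 and 8.05 in controls and 9.05, 9.15 and 10.13 in *ob/ob* samples. Every *ob/ob* array was above every control array, and the order did not depend on control 3 or *ob/ob* 3. The difference was 1.26 (SE 0.41), or 2.39-fold on the linear scale, with a limma unadjusted p of 0.0195 and an adjusted p of 1. A two-sided exact permutation test over the samples gave p = 0.1, the smallest that 3 against 3 samples allow. Without control 3 the unadjusted p was 0.0526, and within the scan the difference was 0.83. The dimmer probe of *Gsr* read 7.45, 7.41 and 6.96 in controls and 7.73, 7.27 and 8.39 in *ob/ob* samples. On that probe *ob/ob* 2 lay below control 1 and control 2, and the difference was 0.52 (SE 0.41).

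*Gclc* and *Gclm* encode the catalytic and modifier subunits of glutamate-cysteine ligase, which makes the rate-limiting step of glutathione synthesis. *Gclc* read 7.79, 7.29 and 5.01 in controls and 5.99, 5.53 and 8.83 in *ob/ob* samples. Its lowest array was control 3 and its highest *ob/ob* 3, with the other arrays between, and the difference was 0.085 (SE 1.10), with the opposite sign, -0.41, within the scan. *Gclm* read 5.31, 5.0 and 5.16 in controls and 5.26, 5.09 and 6.74 in *ob/ob* samples. Only *ob/ob* 3 was above the control range for *Gclm*, and the difference of 0.54 (SE 0.51) became 0.02 without *ob/ob* 3.

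The selenium-dependent peroxidases were spread in both directions, with *Gpx3* and *Gpx4* lower and *Gpx1* higher by their means, and none passed the test. *Gpx1*, the cytosolic enzyme that reduces hydrogen peroxide, read 8.52, 7.91 and 7.74 in controls and 8.48, 8.13 and 9.93 in *ob/ob* samples. Only *ob/ob* 3 was above the control range, and the difference was 0.79 (SE 0.56), or 0.35 within the scan. *Gpx3*, the secreted plasma form, read 9.25, 9.21 and 6.38 in controls and 7.07, 6.51 and 7.96 in *ob/ob* samples. Control 1 and control 2 were its highest arrays and control 3 its lowest, below all *ob/ob* samples. The *Gpx3* difference was -1.10 (SE 0.87, limma unadjusted p = 0.252), or -0.75 within the scan. *Gpx4*, which reduces lipid hydroperoxides in membranes and guards against ferroptosis, read 10.19, 9.67 and 7.02 in controls and 8.02, 7.44 and 9.08 in *ob/ob* samples. It had the same order of arrays as *Gpx3*, and differed by -0.78 (SE 0.91), or -0.59 within the scan.

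Because control 3 and *ob/ob* 3 resembled arrays of the other group, as given above, each difference was also computed without them. Leaving out both took *Nfe2l2* from -0.81 to -3.62, *Keap1* to -1.70, *Gpx3* to -2.44, *Gpx4* to -2.20 and *Gclc* from 0.085 to -1.78. *Gsr* at its brighter probe moved less, from 1.26 to 0.85, and the brighter *Hmox1* probe gave 1.05, while *Gpx1* (0.094) and *Gclm* (0.02) came close to no difference. The dimmer *Gsr* probe went from 0.52 to 0.069, and the dimmer *Hmox1* probe from -0.54 to 0.012, so they also came close to no difference. Without control 3 alone the difference of *Nfe2l2* was -2.03, and without *ob/ob* 3 alone -2.40. With 2 against 2 arrays, 7 of the 11 tested probes passed an adjusted p of 0.05 in limma, 2 higher and 5 lower, but so did 45.9% of all probes. The arrays were left out for their measured resemblance to the other group, so these differences and p-values describe the 4 remaining arrays and not the genotypes. The median over the 9 genes was -1.70 without both arrays, -0.76 without control 3 alone and -0.94 without *ob/ob* 3 alone, beside 0.073 over all tested genes without both.

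**Figure D2:**
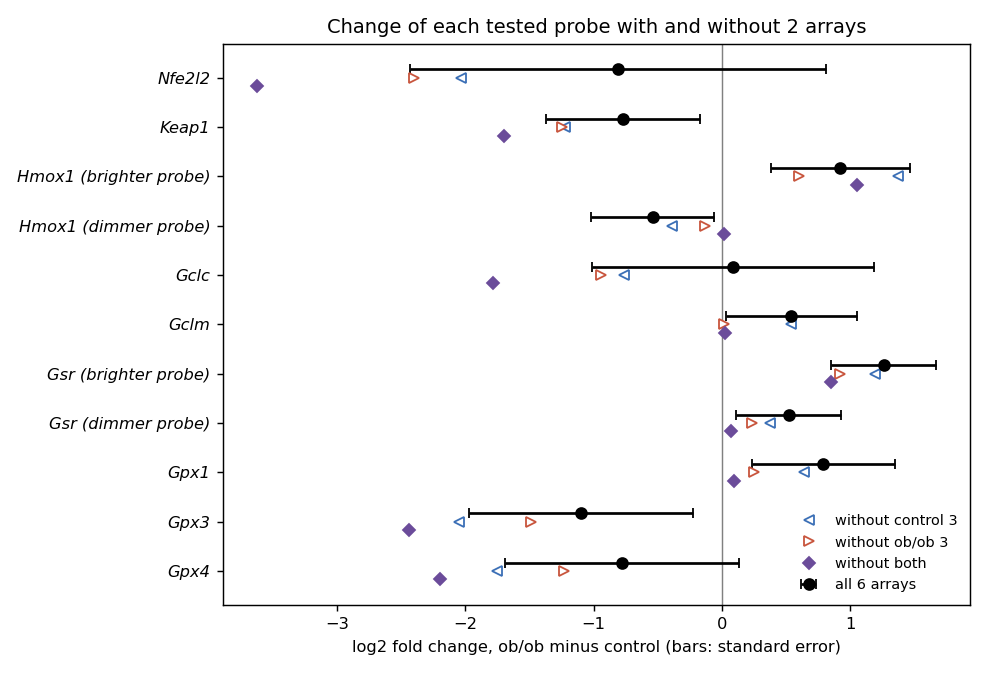
Log2 fold change (x axis, *ob/ob* minus control) of the 11 tested probes, with standard errors for the fit on all 6 arrays (black) and estimates without control 3, without *ob/ob* 3 and without both. *Nfe2l2* runs from -0.81 to -3.62 across these fits, whereas the brighter *Gsr* probe stays between 0.85 and 1.26. The dimmer *Gsr* probe comes to 0.069 without both arrays.

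A wider list of 89 NRF2 and glutathione genes gave a similar picture, with 85 tested. Of these, 44 estimates were higher and 41 lower, with a median log2 fold change of 0.039. Over all tested genes 8137 were higher and 10874 lower. At an unadjusted limma p of 0.05, 2 were higher and 1 was lower, against 2.04% and 1.69% of all tested genes, and 4 higher and 1 lower had groups that did not overlap. Those shares are close to the background given for all genes, and none of the 85 passed after adjustment. Both counts of higher genes include *Glrx*, which passed the detection filter through its *ob/ob* arrays. The genes not tested were *Abcc2*, *Slc7a11*, *Gsta2* and *Sephs2*, named here after their values were seen. Some glutathione transferases of 1 class are alike in sequence, so a probe may read more than 1 of them, which was not examined.

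*Cbr3*, *Glrx*, *Gsto2* and *Sepsecs* were the genes of the wider list with all *ob/ob* arrays above all control arrays. *Cbr3*, a carbonyl reductase that reduces quinones and other carbonyls, read 6.61, 6.28 and 6.13 in controls and 7.50, 7.08 and 7.76 in *ob/ob* samples, a difference of 1.10 (SE 0.35). It differed by 0.84 without control 3 and *ob/ob* 3, so its size depended little on them. *Glrx*, the cytosolic glutaredoxin that reduces glutathione-mixed disulfides, read 4.25, 3.24 and 3.43 in controls and 5.31, 4.68 and 7.83 in *ob/ob* samples. It was well above background on 1 of 3 control arrays and on all *ob/ob* arrays, with a difference of 2.30 (SE 0.85), or 1.24 without both arrays. The *ob/ob* arrays alone carried *Glrx* past the detection filter, so its place among the higher genes partly follows from that filter. With detection on all 6 arrays it was not tested. Then 3 genes of the list were higher without overlap, against 3.77% of all tested genes. With normexp background correction the *Glrx* difference was 0.84. *Gsto2*, an omega-class glutathione transferase, differed by 0.64 (SE 0.34), by 0.26 under 75th percentile scaling and by 0.25 with normexp correction. *Sepsecs*, the last enzyme in making selenocysteinyl-tRNA, differed by 0.51 (SE 0.33), and by 0.098 and 0.25 under these alternatives.

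*Oplah*, the oxoprolinase that returns 5-oxoproline to glutamate in the glutathione cycle, was the 1 gene with all *ob/ob* arrays below all control arrays. It read 7.47, 7.58 and 6.85 in controls and 6.24, 6.18 and 6.18 in *ob/ob* samples. The *ob/ob* arrays lay closer together than the control arrays, and the difference was -1.10 (SE 0.34), or -1.31 without control 3 and *ob/ob* 3. Its unadjusted limma p was 0.0161 and its adjusted p 1.

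The regulators, the NADPH supply and the heme and iron genes held none without overlap. In NADPH supply, 5 of 6 estimates were lower, with a median of -0.95, and *Tkt*, the transketolase of the pentose phosphate pathway, read 12.09, 11.00 and 8.34 in controls and 7.31, 7.21 and 9.56 in *ob/ob* samples. Its difference of -2.45 (SE 1.11) became -4.28 without control 3 and *ob/ob* 3. In heme and iron handling, 4 of 6 were higher, with a median of 0.33, and *Slc40a1*, the iron exporter ferroportin, differed by 0.83 (SE 0.63) and by 0.054 without both arrays. Among 8 regulators, 4 estimates were higher and 4 lower. The peroxidases and thiol reductases other than the 10 genes gave 9 of 13 higher (median 0.55), and the glutathione transferases 13 of 23 higher (median 0.11). These became 3 of 13 (median -0.89) and 11 of 23 (median -0.018) higher without control 3 and *ob/ob* 3. In that setting 2 of 6 heme and iron genes (median -0.87), 0 of 8 regulators and 0 of 6 NADPH supply genes were higher. The direction of the peroxidase and of the heme and iron groups thus depended on those arrays. Without control 3 and *ob/ob* 3, 28 of the 85 genes were higher and 57 lower, with a median of -0.59. Over all tested genes in that setting 10187 were higher and 8824 lower, with a median of 0.073.

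**Figure D3:**
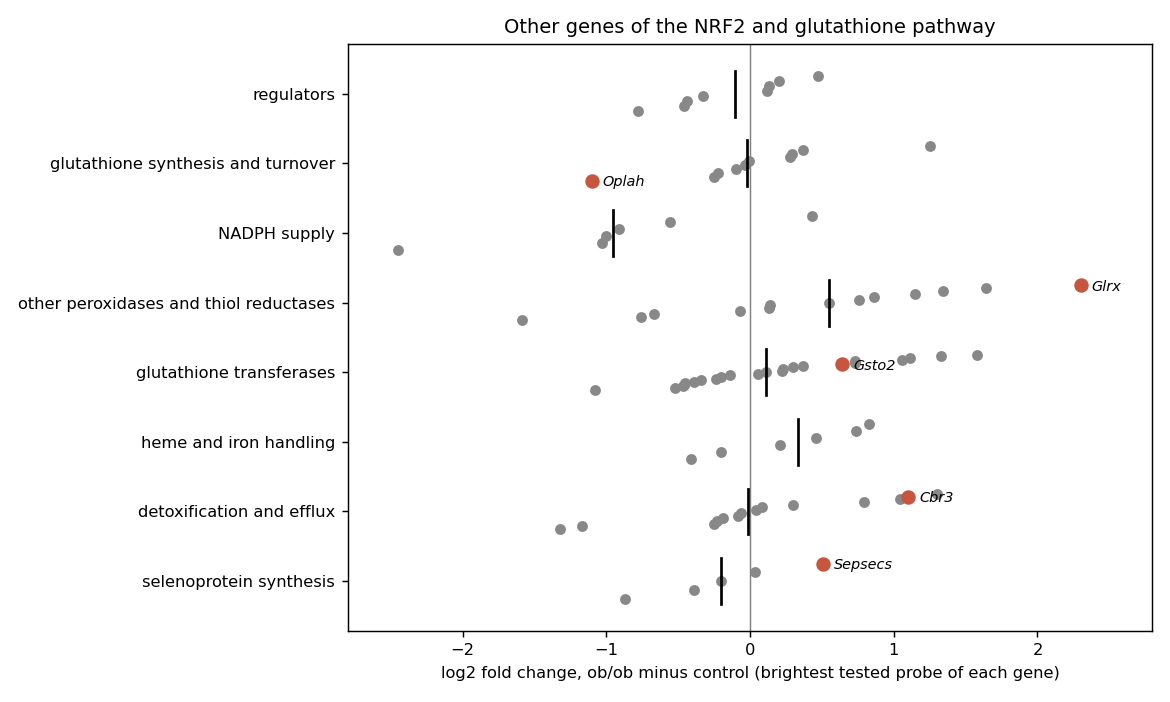
Log2 fold change (x axis, *ob/ob* minus control, all 6 arrays) of the 85 tested genes of the wider list by role, with black bars at group medians. Red points are genes whose groups do not overlap, 4 higher and 1 lower.

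The genes whose profile over the 6 arrays was most like that of *Nfe2l2*, among the 10 and the wider list, were *Mafg*, *Me1* and *Selenop*. The root mean square difference between mean-centered log2 profiles was 0.28 for *Mafg*, 0.31 for *Me1* and 0.45 for *Selenop*. *Mafg* encodes a small MAF partner of NRF2, *Me1* the cytosolic malic enzyme that makes NADPH, and *Selenop* a secreted selenium carrier. *Me1* read 11.26, 11.34 and 8.11 in controls and 8.23, 7.73 and 12.02 in *ob/ob* samples, and its promoter stretch is the 1 shown above that ends in TGACTCAGC. All of them were high on control 1, control 2 and *ob/ob* 3 and low on the other arrays. The summed signal of skeletal muscle markers, given below, was high on the same arrays. How many of all tested genes lie as close to *Nfe2l2* was not counted, and shared control by NRF2 was not tested. The brightest *Mafg* probe differed by -0.78 (SE 1.48), but its other probes gave 1.46 and 0.075, so the likeness holds for that probe and not for the gene. *Gsr* was far from this profile, at 2.0, and *Keap1* lay at 1.36.

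**Figure D4:**
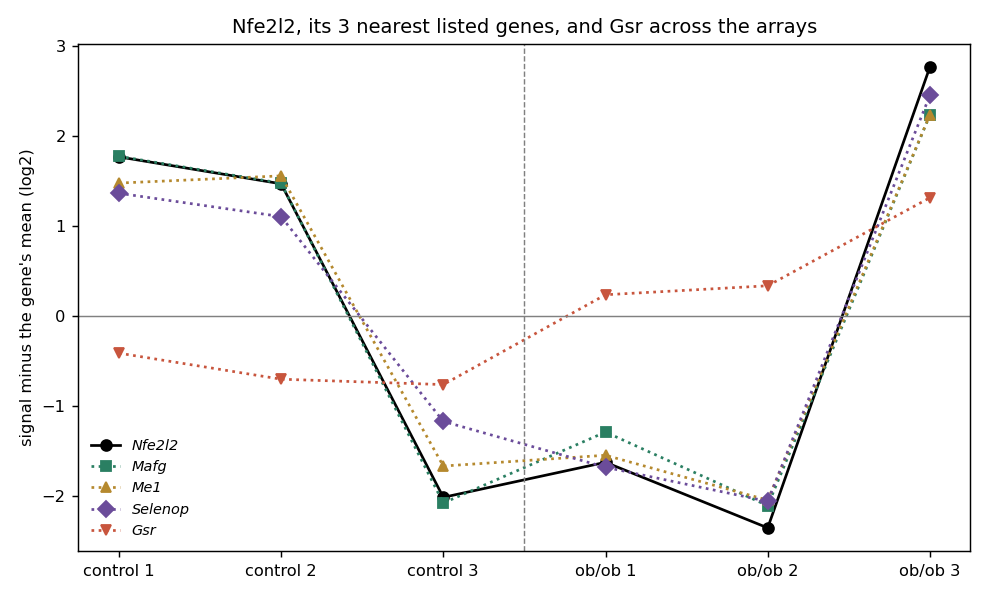
Log2 signal minus the gene's own mean (y axis) on each array for *Nfe2l2*, the 3 genes with the nearest profiles and the brighter *Gsr* probe, with lines joining points only to help follow a gene. *Nfe2l2*, *Mafg*, *Me1* and *Selenop* are high on control 1, control 2 and *ob/ob* 3, whereas *Gsr* is above its mean on the *ob/ob* arrays.

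Many markers of other cell types moved with the same arrays, but not every marker of a list did. The summed linear signal of 8 skeletal muscle markers was 29400, 40500 and 3810 in controls and 783, 983 and 52300 in *ob/ob* samples, high on the arrays where *Nfe2l2* was high. *Myh4*, a fast myosin heavy chain, read 14.44, 14.96 and 11.16 in controls and 6.97, 6.96 and 14.25 in *ob/ob* samples. Of the 8 muscle markers, 7 had lower estimates and *Mylpf* a higher one. *Mylpf* read 4.14, 3.68 and 5.10 in controls and 5.51, 5.59 and 5.39 in *ob/ob* samples. The erythrocyte list, with 5 of 6 markers tested, summed to 12500, 3500 and 1380 in controls and 863, 758 and 32100 in *ob/ob* samples. On control 1 and *ob/ob* 3 that sum was carried largely by *Hbb-bt*, at 13.26 and 14.71. *Slc4a1* went the other way, at 8.77, 9.42 and 9.49 in controls and 8.69, 8.84 and 6.81 in *ob/ob* samples. At the brightest probe all 8 brown adipocyte markers had lower estimates, with a median of -2.70, and their sums were 69900, 40500 and 4490 in controls and 2630, 2400 and 8730 in *ob/ob* samples. *Dio2* differed by only -0.16, and the dimmer *Adrb3* probe went the other way, at 1.30 (SE 0.85) beside -4.49 for the brighter. The part of these cell types in the values of *Nfe2l2*, *Gpx3*, *Gpx4* and the others was not tested, and in whole tissue fewer cells of a type and less RNA per cell cannot be told apart. Macrophage markers summed to 6590, 15300 and 4360 in controls and 5160, 4910 and 3160 in *ob/ob* samples. Except on *ob/ob* 3, that sum was carried largely by *Itgam*, at 12.51, 13.82 and 11.43 in controls and 11.67, 11.54 and 10.25 in *ob/ob* samples. On *ob/ob* 3 *Mrc1* was close to it, at 9.98. Probes of a gene differed: *Itgam* gave -1.43 at the brightest and -0.15 and 0.28 at the others. *Adgre1* gave -0.21 and 1.03, *Csf1r* 1.12, 0.67 and -0.32, and *Msr1* 0.59 and 1.69. The medians and counts that follow use the brightest probe. The median log2 signal of the 7 macrophage markers was 6.80, 6.77 and 6.93 in controls and 7.02, 6.99 and 7.42 in *ob/ob* samples, and 5 of the 7 had higher estimates. The nearest medians of the groups were 6.93 on control 3 and 6.99 on *ob/ob* 2. Of the 7 genes, 1 had groups that did not overlap, *Cd14* (0.23, SE 0.29), against 3.78% of all genes with *ob/ob* higher. The part of macrophages in the values of *Gsr* was not tested. The median difference over the tested markers was 0.53 for macrophages, -0.26 for white adipocytes, -0.10 for lymphocytes and -1.17 for endothelial cells.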

How the data were processed

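Per the labels, 6 iBAT samples were hybridized to Agilent single-dye arrays and quantified with Feature Extraction 11.0.1.1. The deposited scanner files hold spot intensity per feature, with flags for signal well above background, saturation and outliers, and the authors also deposited a table of quantile-normalized log2 values, which correlated with the scanner values at 0.987 to 0.998. Processed intensities were averaged over the unflagged spots of a probe (104 of 39429 probes left out), log2-transformed and quantile-normalized. A probe was tested where at least 50% of its spots were well above background on at least 3 of 6 arrays, in limma 3.58.1 (R 4.3.3), as the difference of *ob/ob* from control, and p-values of 35448 probes were adjusted together by Benjamini-Hochberg. A gene was represented by its brightest tested probe. Of 28623 RefSeq probes, 27174 were named through RefSeq GRCm38.p6, and no probe coordinates were used. The spot intensity of an array fixes no read depth, and the number of arrays limits the precision. The 10 genes, the wider list and the marker lists were chosen with earlier results of these data known. Named were all probes of the 10 genes, and in each role group of the wider list every gene without overlap or, where there was none, the gene with the largest absolute difference, together with the 3 profiles nearest to *Nfe2l2* and *Lep*. The fit was tested on simulated data. Alternatives were 75th percentile scaling, normexp correction (offset 50), the authors' table, other detection filters, the methods' t-test without moderation, an intensity trend, replicate and scan blocks, leaving out arrays, and the mean of a gene's probes.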

Additional observations from a re-analysis of the deposited data

How the results depend on the processing

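At the brightest probe, the log2 fold changes of 7 of the 9 tested genes kept their direction across 17 alternatives, *Gsr* between 0.83 and 1.46, and those of 10 of the 11 other named genes across 17 (16 for *Glrx*). For *Hmox1* this holds for the brighter probe and the mean of its probes (0.19), not for the dimmer probe. The dimmer *Gsr* probe came to 0.069 without control 3 and *ob/ob* 3. The detection filters, the methods' t-test, the intensity trend and the replicate block leave each log2 fold change as it is by construction. The mean of probes changes only genes with several probes. These alternatives therefore could not turn a direction for the genes they leave unchanged. With normexp correction *Nfe2l2* was -0.44, *Keap1* -0.39, *Gclm* 0.28, *Oplah* -0.62, *Slc40a1* 0.51 and *Lep* 1.22. *Nfe2l2* turned to 0.16 without *ob/ob* 2, and *Mafg* to 0.081 without *ob/ob* 2 and to 0.25 as the mean of its probes. *Gclc* turned to -0.41 within the scan, -0.76 without control 3, -0.94 without *ob/ob* 3 and -1.78 without both. Leaving out 1 array at a time, *Nfe2l2* ran from -2.40 to 0.16, *Gclc* from -0.94 to 0.71 and *Mafg* from -2.10 to 0.081. The cause was not tested.

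With control 3 and *ob/ob* 3 both left out, an adjusted p of 0.05 in limma was passed by 7 probes of the 10 genes instead of 0, among them *Nfe2l2* (-3.62), *Keap1* (-1.70), *Hmox1* (1.05), *Gsr* (0.85), *Gpx3* (-2.44) and *Gpx4* (-2.20), and the median over the genes was -1.70. That setting called 16259 of 35448 probes, against 0 with all 6 arrays (1245 at an unadjusted p of 0.05), and an intensity trend with robust estimation called 1, which was no probe of the 10 genes. In all other settings, leaving out single arrays included, the count was 0.

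At an unadjusted p of 0.05, 7 probes of the 10 genes passed without both arrays (52% of all probes did), 0 under 75th percentile scaling, the intensity trend or the scan block, and 0 to 3 when 1 array was left out, with 0 without control 2 and 3 without control 3 (8.48% of all probes). Of the 9 genes, 7 had groups that did not overlap without both arrays, 2 within the scan, and 1 to 5 when 1 array was left out, 5 being without control 3. Over all tested genes those shares were 74.8% without both arrays, 44% within the scan and 24.1% without control 3.

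In the wider list, genes without overlap numbered 7 higher and 2 lower under 75th percentile scaling, 4 lower with normexp correction or the mean of probes, 2 lower in the authors' values, 15 higher and 19 lower within the scan, 19 higher and 49 lower without both arrays, and 5 to 11 higher and 1 to 11 lower when 1 array was left out. Over all tested genes, 19.4% were higher and 24.6% lower without overlap within the scan, 38.1% and 36.6% without both arrays, and 4.06% to 14.9% and 4.67% to 14.7% when 1 array was left out. Past an unadjusted p of 0.05 there was 1 higher gene under 75th percentile scaling, normexp correction, detection on all 6 arrays and the methods' t-test, 0 lower under 75th percentile scaling, 0 in either direction within the scan, 2 lower for the mean of probes, 16 higher and 42 lower without both arrays, and 0 to 5 higher and 0 to 4 lower when 1 array was left out. Of all tested genes, 25.6% were higher and 29.5% lower at that p without both arrays, and 0.295% to 5.88% and 0.531% to 4.43% when 1 array was left out. Under 75th percentile scaling 0.426% were higher and 1.01% lower at that p. The higher share was 1.94% with normexp correction, 1.95% with detection on all 6 arrays and 2.17% in the t-test. The lower share was 1.45% for the mean of probes. Without overlap under 75th percentile scaling were 2.34% of all tested genes with *ob/ob* higher and 4.43% with *ob/ob* lower. The lower share without overlap was 4.23% with normexp correction, 4.24% for the mean of probes and 4.22% in the authors' values. The 75th percentile scaling moved the median of all probes from -0.073 to -0.32.

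The replicate numbers do not pair the samples: deviations from the group means correlated at -0.781, -0.658 and -0.85 within numbers 1, 2 and 3. With the replicate number as a block, all differences were the same by construction (-0.81 for *Nfe2l2*, 1.26 for *Gsr*), 0 probes of the 10 genes passed an unadjusted or adjusted p, 2 genes kept 1 sign in every numbered pair (12.7% of all genes did), and the wider list gave 7 higher and 7 lower by sign (5.76% and 6.94% of all genes), with 0 higher and 1 lower at an unadjusted p.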
